A study of Homo sapiens with 6 samples.

Results

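The replicative DNA polymerases and their primase were examined in COV434 cells, an established human line that the labels give as granulosa cells (GCs), with and without 4HC, an activated form of cyclophosphamide (CTX). The 10 genes were taken by symbol from the authors' gene table and were 10 of the 16798 genes in it. They encode the 4 subunits of polymerase alpha-primase (POLA1, POLA2, PRIM1 and PRIM2), the 4 of polymerase delta (POLD1, POLD2, POLD3 and POLD4), and the catalytic and second subunits of polymerase epsilon (POLE and POLE2). Bulk RNA-seq of total RNA had been made from 3 control samples, which the labels call WT, and from 3 samples of the same line given 15 µM 4HC for 24 h, which the labels call CTX. The 4HC text stands in the treatment label of all 6 samples, so the groups were read from the sample titles. The labels do not say whether the 3 replicates of a group were grown apart, and p-values then measure only the spread between these samples, which may be technical. All values come from 1 cell line, 1 dose and 1 time.

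DNA synthesis in the nucleus is divided between these enzymes. Primase makes a short RNA primer, polymerase alpha extends it with DNA, and polymerases epsilon and delta then take over, epsilon mainly on the leading strand and delta mainly on the lagging strand. Polymerases delta and epsilon also fill gaps during excision repair, and both have a proofreading exonuclease, which polymerase alpha lacks. Cyclophosphamide forms crosslinks in DNA through its active metabolites, and crosslinks are a block to replication forks.

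The start regions of 6 of the 9 genes with a window are shown. They are the 4 that hold an E2F motif, PRIM1, and POLD4, whose RNA was not called. Those of PRIM2 and POLD1, called higher in 4HC, and of POLD2, not called, are not printed. Each printed region is the RefSeq window of GRCh38.p14, from 250 bases before to 50 bases after the first-listed start site. It is read 5′ to 3′ on the strand of the gene. Capitals mark exact matches on either strand to an E2F motif (TTTCCCGC, TTTGGCGC, TTTCGCGC or TTTGCCGC) and to a CCAAT box (CCAAT). The windows are at chrX:24693668-24693967 on the plus strand for POLA1, chr11:65261712-65262011 on the plus strand for POLA2, chr12:56752274-56752573 on the minus strand for PRIM1, chr12:132687293-132687592 on the minus strand for POLE, chr14:49688165-49688464 on the minus strand for POLE2 and chr11:67353547-67353846 on the minus strand for POLD4.
POLA1: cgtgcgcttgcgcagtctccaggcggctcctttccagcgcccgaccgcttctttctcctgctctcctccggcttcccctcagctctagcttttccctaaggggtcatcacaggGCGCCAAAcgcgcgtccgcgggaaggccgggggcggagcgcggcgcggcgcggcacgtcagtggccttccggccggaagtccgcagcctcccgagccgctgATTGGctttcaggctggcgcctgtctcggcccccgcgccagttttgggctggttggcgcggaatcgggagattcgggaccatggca
POLA2: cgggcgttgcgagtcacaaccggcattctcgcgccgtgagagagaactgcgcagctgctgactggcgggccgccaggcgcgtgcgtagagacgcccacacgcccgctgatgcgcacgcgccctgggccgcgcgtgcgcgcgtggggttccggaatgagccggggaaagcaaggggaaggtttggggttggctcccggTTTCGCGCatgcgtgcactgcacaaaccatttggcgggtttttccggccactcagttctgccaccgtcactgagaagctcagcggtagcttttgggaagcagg
POLE: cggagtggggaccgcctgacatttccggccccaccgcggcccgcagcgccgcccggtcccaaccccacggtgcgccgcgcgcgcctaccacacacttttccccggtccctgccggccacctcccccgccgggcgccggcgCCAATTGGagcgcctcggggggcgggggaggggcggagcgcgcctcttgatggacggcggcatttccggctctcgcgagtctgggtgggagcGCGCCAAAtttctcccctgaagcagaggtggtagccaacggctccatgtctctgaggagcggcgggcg
POLE2: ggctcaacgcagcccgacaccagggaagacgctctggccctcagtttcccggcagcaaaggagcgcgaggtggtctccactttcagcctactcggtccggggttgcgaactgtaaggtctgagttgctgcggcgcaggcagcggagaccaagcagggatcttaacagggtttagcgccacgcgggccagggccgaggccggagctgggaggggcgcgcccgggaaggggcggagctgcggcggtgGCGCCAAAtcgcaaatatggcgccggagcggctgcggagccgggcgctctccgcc
PRIM1: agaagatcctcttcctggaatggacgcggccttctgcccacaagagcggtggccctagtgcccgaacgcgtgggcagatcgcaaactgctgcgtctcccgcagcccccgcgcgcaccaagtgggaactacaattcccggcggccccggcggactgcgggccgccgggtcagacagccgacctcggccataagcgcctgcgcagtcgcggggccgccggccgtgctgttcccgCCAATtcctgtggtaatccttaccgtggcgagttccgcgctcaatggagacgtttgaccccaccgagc
POLD4: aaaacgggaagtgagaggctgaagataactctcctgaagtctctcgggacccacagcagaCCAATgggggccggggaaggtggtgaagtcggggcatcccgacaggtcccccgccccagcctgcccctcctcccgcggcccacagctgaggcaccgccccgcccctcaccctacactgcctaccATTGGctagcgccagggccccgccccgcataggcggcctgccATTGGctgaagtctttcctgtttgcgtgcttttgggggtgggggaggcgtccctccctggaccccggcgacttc

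E2F is a family of transcription factors that acts on many genes of the G1/S transition. An E2F motif was found in 4 of the 9 members with a RefSeq window (POLA1, POLA2, POLE and POLE2) and in 3.33% of the 27305 first-listed windows of all genes. Its first base lay at -137 in POLA1, -53 in POLA2, -18 in POLE and -5 in POLE2, counted from the start site. No E2F motif was found in the windows of PRIM1, PRIM2 and POLD1, which were also called higher in 4HC. Those of POLD2 and POLD4, not called, held none either. Whether a motif goes with the change in RNA was not tested. A CCAAT box was found in 5 of the 9 (POLA1, PRIM1, POLD2, POLD4 and POLE) and in 35.7% of all windows, and in POLE its match on one strand overlaps that on the other. The GC box GGGCGG, not marked above, was found in 6 of the 9 and in 44.6% of all windows, and the CHR motif (TTTGAA or TTCGAA) in 0 of the 9 and in 16.6% of all windows. A match is a run of letters and not a measured binding site, and no match says only that these letters are not in the window. POLD3 had no RefSeq window.

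Samples held between 16133786 and 16702316 expected counts in all. Every member had at least 199 expected counts in every sample, so all 10 were among the 12368 genes tested. Control and 4HC samples were apart on principal component 1, with 53.4% of the variance. Of the 10 granulosa markers listed, 8 were in the table and 2 had enough counts to be tested, AMH (control mean 5.19 CPM, 4HC mean 5.27 CPM) and INHA (0.797 and 0.611 CPM). FOXL2, a defining transcription factor of GCs, had 0 CPM in all 3 controls and at most 0.185 CPM in 4HC, and FSHR, CYP19A1, NR5A1 and STAR had means under 0.1 CPM in both groups, INHBA means of 0.651 and 0.306 CPM. Of the granulosa markers in the table, AMH alone had a mean above 1 CPM. Among markers of other cell types, 0 of the 2 blood, 4 fibroblast and 1 epithelial genes tested differed between the groups. DCN (48.0 and 46.8 CPM) and LUM (65.8 and 64.6 CPM), both fibroblast markers, had the highest means. The other fibroblast markers listed were low, with COL1A1 at 0.918 and 1.24 CPM, COL1A2 at 2.88 and 2.61 CPM and PDGFRA at 0.246 and 0.0411 CPM.

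Of the 10 members, 8 passed an adjusted p-value of 0.05 as higher in 4HC and 0 as lower by edgeR's quasi-likelihood test, beside 19.2% of the 12368 genes tested that were higher and 17.1% that were lower. All 4 subunits of polymerase alpha-primase rose, as did POLE and POLE2 of polymerase epsilon and POLD1 and POLD3 of polymerase delta. The other subunits of polymerase epsilon, POLE3 and POLE4, are not among the 10 and are given below. POLD2 and POLD4 were not called. The log2 fold changes of the 10 ran from 0.02 to 0.62 with a median of 0.31, and that of all genes tested was 0.00. In the 8 that rose, all 3 4HC samples lay above all 3 controls, an order seen in 23.4% of the genes tested (45.3% had groups without overlap in either direction). None of the 10 reached the study's fold change of 2 at an unadjusted p-value under 0.05 (edgeR), which 1.15% of the genes tested did.

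**Figure D1:**
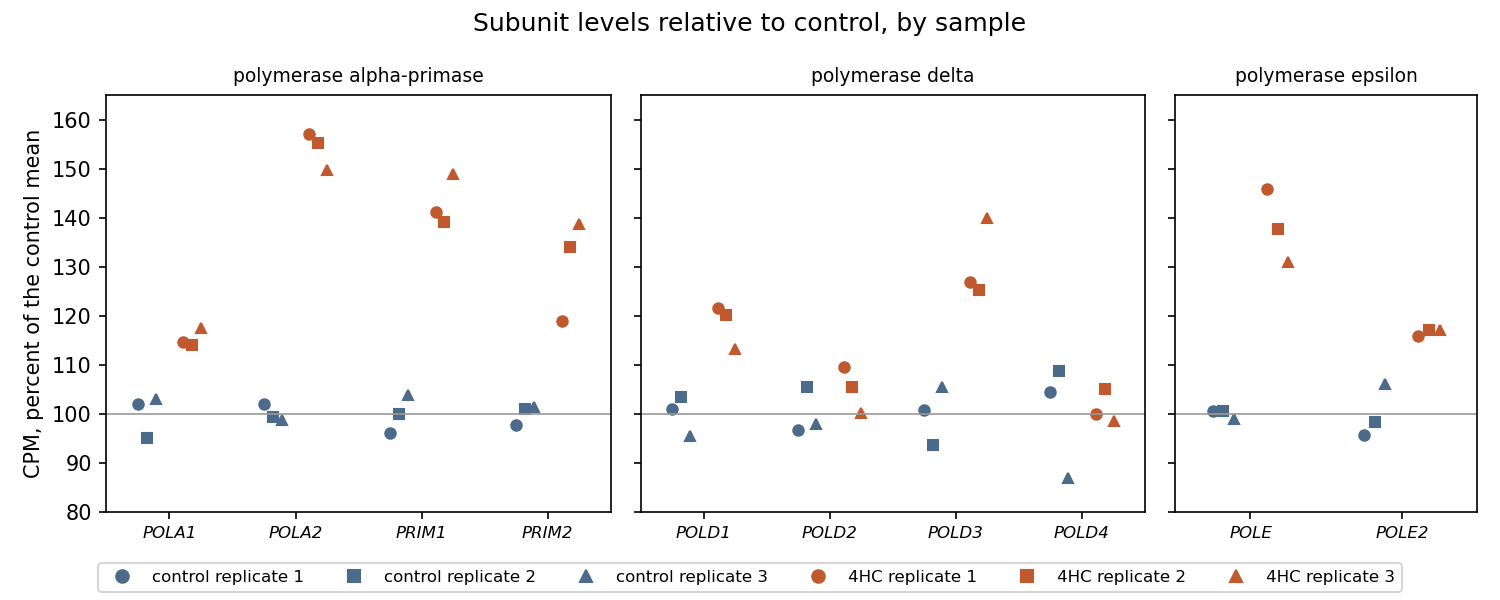
Normalized read counts (CPM) of each subunit in each sample, as percent of the mean of the 3 control samples, in 3 panels by enzyme. Colours mark the groups and symbols the replicates. The 4HC samples of POLA2, PRIM1 and POLE lie well above 100 in all 3 replicates, while those of POLD2 and POLD4 mix with the controls.

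Within polymerase alpha-primase, the largest rise was that of POLA2, the accessory B subunit that anchors the catalytic subunit. POLA2 (NCBI Gene 23649, chromosome 11 of GRCh38, 65261917 to 65314731) had normalized counts of 55.3, 53.9 and 53.6 CPM without 4HC (replicates 1 to 3) and of 85.2, 84.2 and 81.2 CPM with it (replicates 1 to 3). The 4HC samples were all far above the controls, and the replicates of a group lay close together. The mean rose from 54.3 ± 0.882 to 83.5 ± 2.06 CPM (SD, n = 3), which is 1.54-fold with a 95% interval of 1.44 to 1.64 (log2 fold change 0.62, standard error 0.046, adjusted p = 3.25e-16). By log2 fold change it ranked 402 of the 12368 genes tested. The expected counts of POLA2 were up to 0.42 away from whole numbers, as happens where reads are divided between features.

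PRIM1 and PRIM2 encode primase itself, PRIM1 the small catalytic subunit and PRIM2 the large subunit, which carries an iron-sulfur cluster. PRIM1 (NCBI Gene 5557, chromosome 12, 56729823 to 56752353) measured 17.5, 18.2 and 18.9 CPM without 4HC and 25.7, 25.3 and 27.1 CPM with it. All its 4HC samples were above every control, and its log2 fold change came to 0.51 ± 0.069 (SE, adjusted p = 2.64e-08). PRIM2 (NCBI Gene 5558, chromosome 6, 57314805 to 57646852) measured 22.2, 22.9 and 23.0 CPM without 4HC and 27.0, 30.4 and 31.5 CPM with it. Its controls were tightly grouped and its 4HC samples more spread, with replicate 1 the lowest, and its log2 fold change came to 0.38 ± 0.066 (SE, adjusted p = 5.36e-06). RefSeq lists a pseudogene of PRIM2, PRIM2BP, on the same chromosome, and whether they shared reads was not tested. The expected counts of PRIM2 were up to 0.03 away from whole numbers.

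The catalytic subunit had the smallest fold change of this enzyme. POLA1 (NCBI Gene 5422, chromosome X, 24693877 to 24996986), which extends the RNA primer with DNA, measured 68.4, 63.7 and 69.0 CPM without 4HC and 76.8, 76.4 and 78.8 CPM with it. The groups did not overlap, with the highest control at 69.0 CPM and the lowest 4HC sample at 76.4 CPM. The log2 fold change came to 0.21 ± 0.046 (SE, adjusted p = 0.000313), or 1.15-fold with a 95% interval of 1.08 to 1.23.

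In polymerase delta the subunits were split. POLD3, a subunit that binds the clamp PCNA and is shared with the translesion polymerase zeta, had the largest change. POLD3 (NCBI Gene 10714, chromosome 11, 74592582 to 74669341) measured 45.9, 42.6 and 48.0 CPM without 4HC and 57.7, 57.0 and 63.7 CPM with it. Every 4HC sample was above every control, and its log2 fold change came to 0.39 ± 0.054 (SE, adjusted p = 6.19e-08). POLD1 (NCBI Gene 5424, chromosome 19, 50384291 to 50418018), the catalytic and proofreading subunit, measured 56.1, 57.5 and 53.1 CPM without 4HC and 67.6, 66.8 and 62.9 CPM with it. It also rose without overlap, its log2 fold change being 0.24 (standard error 0.049, adjusted p = 7.23e-05).

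The other two subunits of polymerase delta were not called. POLD2 (NCBI Gene 5425, chromosome 7, 44114680 to 44123668), the scaffold between POLD1 and POLD3, measured 94.5, 103 and 95.7 CPM without 4HC and 107, 103 and 97.8 CPM with it. Its groups overlapped, and its log2 fold change of 0.07 had a 95% interval of -0.02 to 0.16 (adjusted p = 0.221), or 0.987 to 1.11 as a fold. The value was 0.03 without 4HC replicate 1 (adjusted p = 0.645), 0.04 without control replicate 1 (adjusted p = 0.546) and 0.11 without control replicate 2 (adjusted p = 0.0744). RefSeq lists a pseudogene of POLD2, POLD2P1, and shared reads were not tested. The largest distance of the expected counts of POLD2 from whole numbers was 0.0. POLD4 (NCBI Gene 57804, chromosome 11, 67350765 to 67373598), the smallest subunit, whose protein is known to be degraded after DNA damage, measured 14.4, 15.0 and 12.0 CPM without 4HC and 13.8, 14.5 and 13.6 CPM with it. Here too the groups overlapped, with control replicate 3 the lowest of all 6 samples, and the log2 fold change was 0.02 with a 95% interval of -0.16 to 0.20 (adjusted p = 0.884). POLD4 had the fewest counts of the 10, from 199 to 243 per sample, and the widest interval. Its interval in the authors' table overlaps that of CLCF1, which was at 2.88 ± 0.657 CPM in control and 2.4 ± 0.149 CPM in 4HC (SD, n = 3; adjusted p = 0.322 from the same test). Leaving out control replicate 3 took the POLD4 value to -0.07 (adjusted p = 0.624), and leaving out 4HC replicate 2 took it to -0.01 (adjusted p = 0.966). Leaving out control replicate 2 took it to 0.08 (adjusted p = 0.568).

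In polymerase epsilon, POLE (NCBI Gene 5426, chromosome 12, 132623758 to 132687519), the catalytic and proofreading subunit, measured 122, 122 and 120 CPM without 4HC and 177, 167 and 159 CPM with it. The controls were almost equal, and the 4HC samples differed more among themselves but all stood far above them. The log2 fold change came to 0.46 ± 0.040 (SE, adjusted p = 4.13e-14), or 1.38-fold with a 95% interval of 1.31 to 1.46. POLE2 (NCBI Gene 5427, chromosome 14, 49643555 to 49689092), the B subunit that joins POLE to the replicative helicase, measured 21.7, 22.3 and 24.1 CPM without 4HC and 26.3, 26.6 and 26.6 CPM with it. The groups did not overlap and its log2 fold change was 0.22 (standard error 0.066), with the largest adjusted p of the 8 calls, 0.00599, and with DESeq2 the same value of 0.22 missed the threshold (adjusted p = 0.0584). Of the histone-fold subunits POLE3 and POLE4, which are not among the 10, POLE4 rose from 12.7 ± 0.662 to 16.8 ± 1.71 CPM (SD, n = 3; log2 fold change 0.40, standard error 0.087, adjusted p = 0.000191). POLE3, which also belongs to chromatin remodelling complexes, had 118 ± 4.79 CPM in control and 117 ± 2.44 CPM in 4HC, and the 95% interval of its log2 fold change was -0.08 to 0.08.

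**Figure D2:**
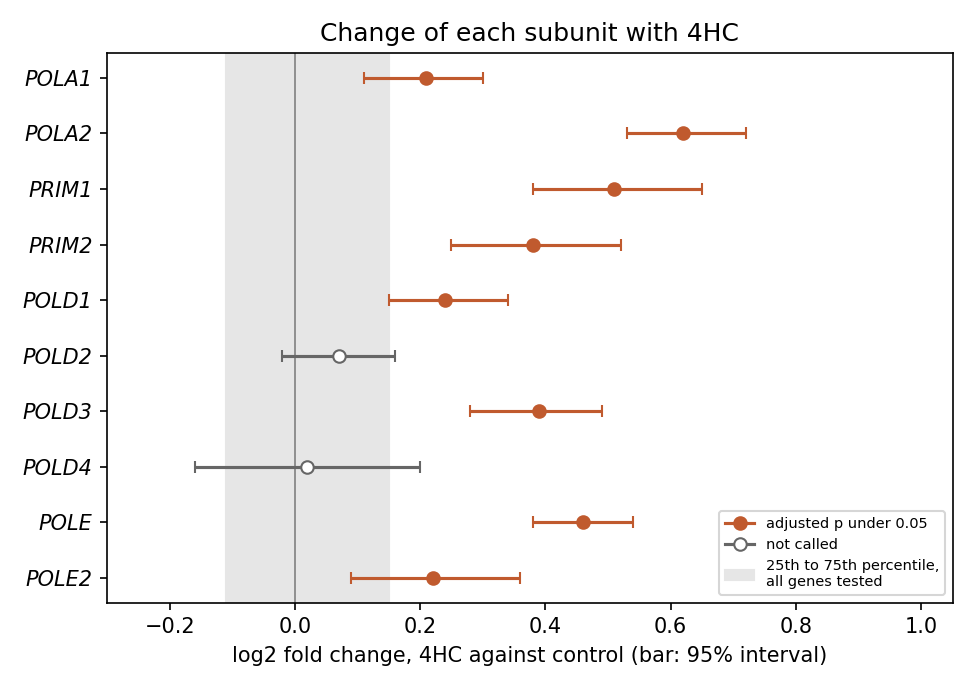
Log2 fold change of each subunit between 4HC and control from edgeR, with its 95% interval as a horizontal bar. Filled points passed an adjusted p-value of 0.05, and the grey band spans the 25th to 75th percentile of all genes tested, -0.11 to 0.15. The intervals of POLD2 and POLD4 include 0, and POLA2 lies farthest to the right at 0.62.

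Levels of different genes were compared as TPM, which the authors scaled to transcript length. In control cells POLD2 was the most abundant member at 113 ± 4.69 TPM (SD, n = 3) and POLD4 the least at 15.3 ± 1.63 TPM, a 7.35-fold range. POLA2 followed POLD2 with 36.3 ± 2.1 TPM, and then POLD1 with 27.5 ± 0.919 TPM. POLE (25.9 ± 0.223 TPM), POLE2 (25.6 ± 2.06 TPM) and PRIM1 (25.1 ± 1.08 TPM) were next, and neighbours among these 3 were not apart beyond their replicates. POLD3 (22.0 ± 1.58 TPM) and POLA1 (20.4 ± 1.14 TPM) overlapped with each other, and PRIM2 (18.1 ± 0.782 TPM) lay between them and POLD4. In 4HC the ends of the order were again POLD2 at 118 ± 5.55 TPM and POLD4 at 15.5 ± 0.43 TPM. POLA2 stood at 53.6 ± 0.958 TPM in the treated cells, while PRIM1 at 35.7 ± 1.32 TPM came next, overlapping POLE at 35.1 ± 1.7 TPM, which in turn overlapped POLD1 at 32.5 ± 1.32 TPM. POLE2 was at 29.7 ± 0.595 TPM, POLD3 at 27.8 ± 1.21 TPM, and POLA1 at 23.4 ± 0.388 TPM overlapped PRIM2 at 23.2 ± 1.17 TPM.

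**Figure D3:**
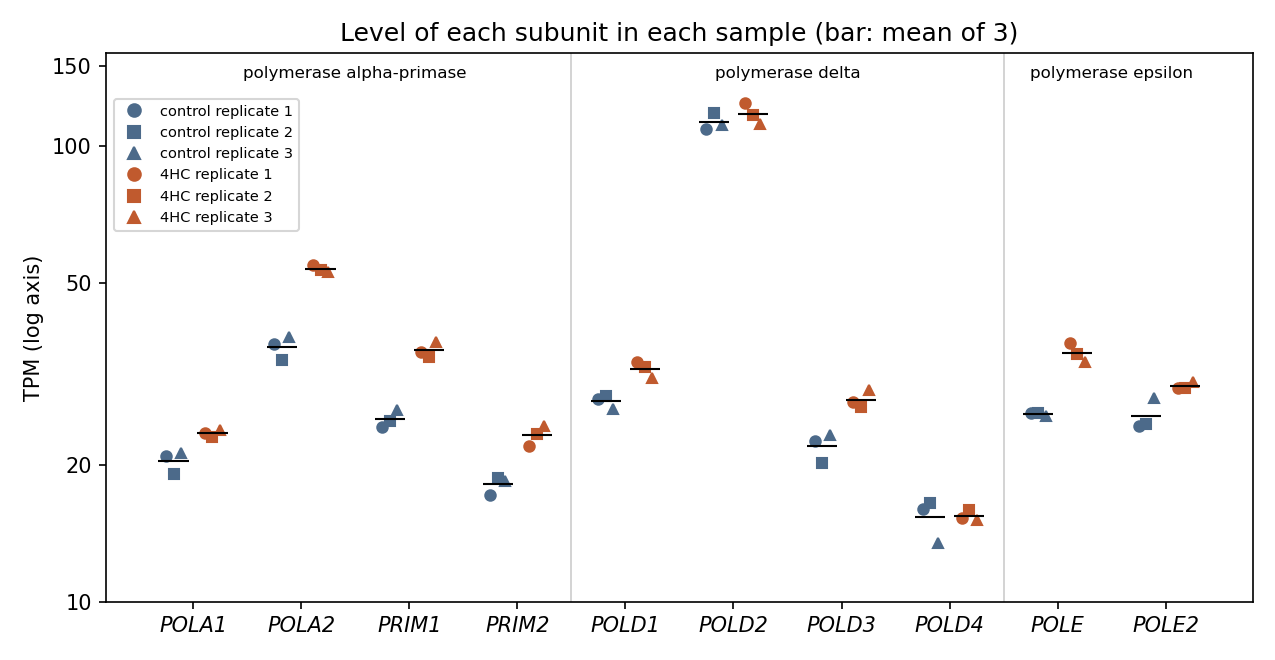
TPM of each subunit in each sample on a log axis, grouped by enzyme, with a bar at the mean of the 3 samples of a group. POLD2 lies above 100 TPM in all 6 samples, and POLD4 lies below every other member in all 6.

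Whether the subunits of 1 enzyme changed unequally was asked with 8 ratios of TPM within each sample. An exact permutation test of 3 samples against 3 cannot give a p-value below 0.1, two-sided, so none of the 8 could pass 0.05, and the ratios are given with their spread. That spread holds for TPM, and ratios of CPM were not computed. TPM and CPM did not order replicates alike, as control replicates 1 to 3 of POLA2 had 36.8, 34.0 and 38.1 TPM but 55.3, 53.9 and 53.6 CPM. The ratio of POLA2 to POLA1 was 1.78 ± 0.0184 in control and 2.29 ± 0.0606 in 4HC (SD, n = 3; exact p = 0.1, adjusted p = 0.133 over the 8 ratios), and that of PRIM1 to POLA1 was 1.23 ± 0.0743 and 1.52 ± 0.0326 (exact p = 0.1). In both, all 4HC samples were above all controls, the catalytic subunit of polymerase alpha being the denominator. The ratio of PRIM2 to POLA1 overlapped between the groups, at 0.888 ± 0.0796 and 0.992 ± 0.048 (exact p = 0.2), and that of PRIM1 to PRIM2 was 1.39 ± 0.0501 and 1.54 ± 0.0699 without overlap (exact p = 0.1).

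In polymerase delta, the ratio of POLD2 to POLD1 was 4.09 ± 0.155 in control and 3.62 ± 0.053 in 4HC (SD, n = 3; exact p = 0.1). That of POLD4 to POLD1 was 0.556 ± 0.0415 and 0.476 ± 0.0178 (exact p = 0.1). In both the groups did not overlap and the 4HC samples were the lower ones. The ratio of POLD3 to POLD1 overlapped, at 0.8 ± 0.0813 and 0.858 ± 0.0705 (exact p = 0.4). In polymerase epsilon, the ratio of POLE2 to POLE was 0.99 ± 0.0885 and 0.847 ± 0.0552 (exact p = 0.1), again lower in 4HC without overlap. Every ratio with an exact p of 0.1 had an adjusted p of 0.133 over the 8, and how often ratios of other gene pairs are without overlap was not computed.

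**Figure D4:**
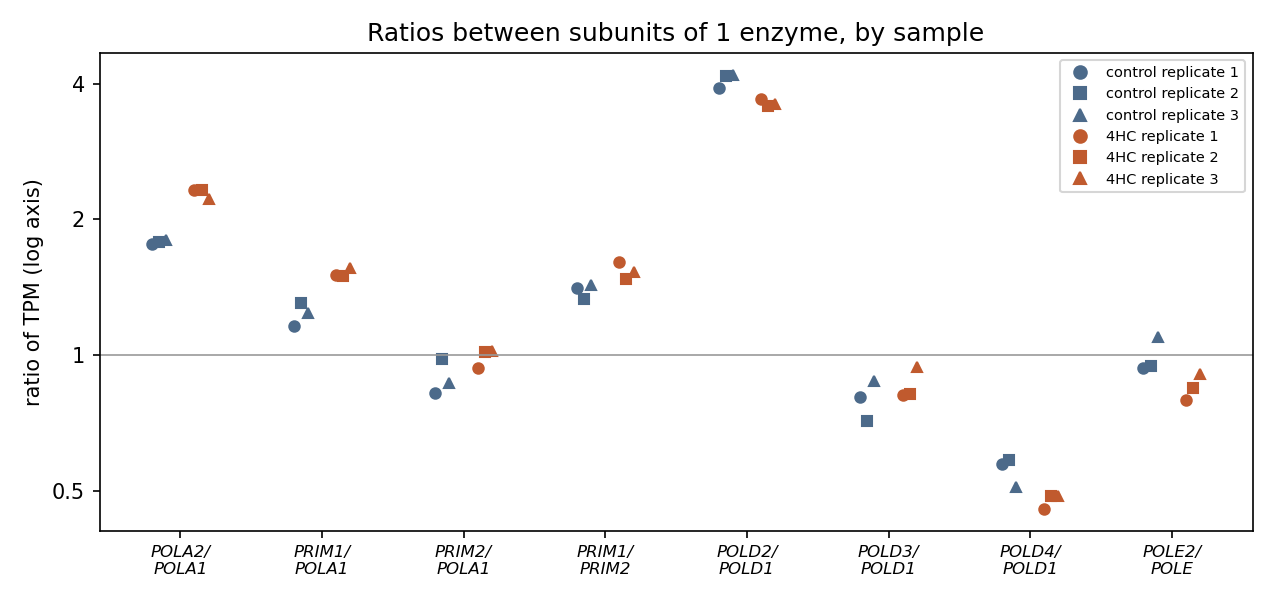
Ratio of the TPM of 2 subunits of the same enzyme in each sample, on a log axis, with colours for the groups and symbols for the replicates. The ratios of POLA2 and PRIM1 to POLA1 are higher in all 3 4HC samples, and those of POLD2 and POLD4 to POLD1 and of POLE2 to POLE are lower.

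Expected counts were deposited per transcript as well, with 52 transcripts for the 10 genes. PRIM1 had a single transcript, and the leading transcript of the others took between 44.2% of the gene's counts in control (POLA2) and 99.2% (POLD4). Of the 36 member transcripts with enough counts for a test, edgeR called 3 higher in 4HC and 0 lower (adjusted p-value under 0.05), beside 0.706% and 0.587% of the 42216 transcripts tested, while DESeq2 called 6 member transcripts higher. The 3 of edgeR were the leading transcripts of POLA2 (NM_002689, 392 ± 46.6 counts in control and 677 ± 39.3 in 4HC, SD, n = 3), PRIM1 (NM_000946, 298 ± 15.1 and 426 ± 15.5) and POLE (NM_006231, 1842 ± 18.7 and 2596 ± 171). Their log2 fold changes were 0.79, 0.52 and 0.49.

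Of the 9 members with more than 1 transcript, 4 (POLA1, POLA2, POLD1 and POLE) had a share of the leading transcript that was higher in all 3 4HC samples than in all 3 controls, an order seen in 6.71% of the 10137 tested genes with more than 1 transcript. In POLA1 the leading transcript, NM_001330360, took 76.3% ± 2.92 of the gene's counts in control and 82.8% ± 5.4 in 4HC (SD, n = 3), and the next, NM_016937, took 10.4% ± 1.22 and 5.73% ± 2.77. Neither share overlapped between the groups, and neither transcript passed the test (log2 fold changes 0.33 and -0.65, adjusted p = 0.136 and 0.735 from edgeR over all transcripts). The leading transcript of POLD1, NM_002691, took 74.1% ± 2.91 and 78.4% ± 0.915, also without overlap and without passing the test (adjusted p = 0.118). Transcripts of 1 gene share exons, so their counts are estimates and less certain than the gene's.

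The other genes of the replication fork were read from lists in the same fit. The list of CDC45, GINS and RPA holds parts of the replicative helicase, the single-strand binding protein and WDHD1. Of its 9 genes tested, 8 were higher and 0 lower, with a median log2 fold change of 0.36. GINS4 rose by 0.64 on the log2 scale (standard error 0.047) and WDHD1, which links polymerase alpha to the helicase, by 0.54 (standard error 0.049). In the list of the clamp, its loaders and Okazaki fragment joining, 10 of 13 were higher and 1 lower, with a median of 0.36. PCNA, the sliding clamp that polymerase delta runs on, rose from 275 ± 5.97 to 567 ± 6.82 CPM (SD, n = 3; log2 fold change 1.04), and LIG1, which seals Okazaki fragments, by 0.70. In the MCM helicase and its loaders, 9 of 16 were higher and 1 lower with a median of 0.18, led by CDT1 at 0.97 and its inhibitor GMNN at 0.47. The median of the 10 polymerase and primase genes, 0.31, lay between those of these lists, and no difference between the lists was tested.

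Other DNA polymerases were mixed. Of 12 repair and translesion polymerase genes tested, 7 were higher and 1 lower, with a median log2 fold change of 0.19. POLH, which bypasses damaged bases and is a known p53 target, rose from 111 ± 1.12 to 211 ± 7.86 CPM (SD, n = 3; log2 fold change 0.92), and POLQ, the polymerase of microhomology-mediated end joining, by 0.67. These 2 changes are larger than that of any of the 10 members. The mitochondrial polymerase genes POLG and POLG2 were not called, 0 of 2, with a median of 0.04, nor were the 3 genes of the CST complex, a partner of polymerase alpha at telomeres, with a median of 0.09.

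**Figure D5:**
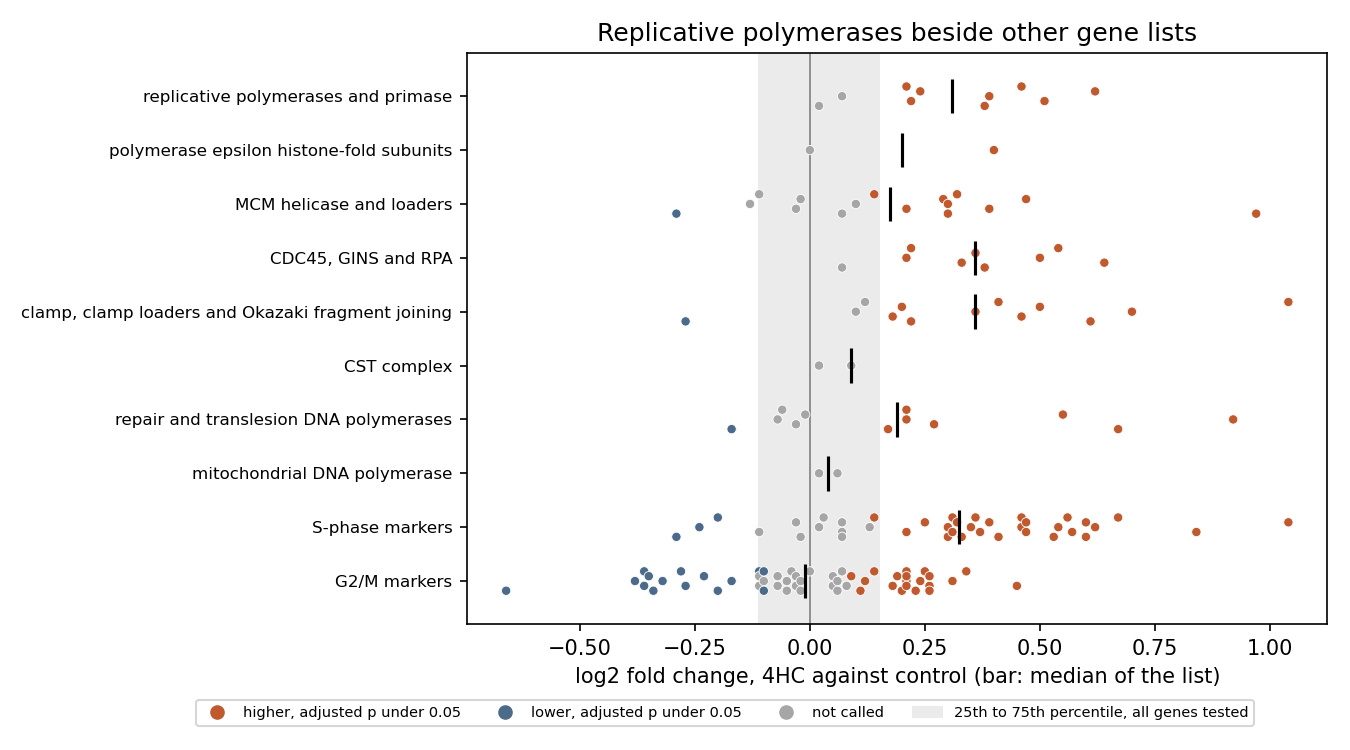
Log2 fold changes of single genes, one point a gene, in the polymerase and primase set and in 9 other lists, with a bar at the median of each list. Colours mark genes that were higher, lower or not called at an adjusted p-value of 0.05 in edgeR, and the grey band spans the 25th to 75th percentile of all genes tested. The 10 members lie between 0.02 and 0.62, and the G2/M markers spread on both sides of 0.

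Markers of S phase moved with the members. Of 40 S-phase markers outside the 10, 28 were higher and 3 lower in 4HC, with a median log2 fold change of 0.32, and their summed level was 4134 to 4279 CPM in control and 5361 to 5462 CPM in 4HC. PCNA (1.04) and RRM2 (0.84), a subunit of ribonucleotide reductase, changed most. Of these 40 markers, 6 are also in the list of the MCM helicase and its loaders, 3 in that of CDC45, GINS and RPA and 3 in that of the clamp, so these counts are not independent. Of 54 G2/M markers, 20 were higher and 15 lower, with a median of -0.01 and a summed level of 7933 to 8079 CPM in control and 8123 to 8363 CPM in 4HC. CDC20 fell by 0.66 on the log2 scale and KIF20B rose by 0.45. None of the markers in either list was at 0 in all samples. The summed level of the 10 members was 517 to 521 CPM in control and 642 to 664 CPM in 4HC. The ratio of this sum to the S-phase sum was chosen after the values were seen. It was 12.1% to 12.6% in control and 11.8% to 12.4% in 4HC. The groups overlapped only through 4HC replicate 1 (12.4%), as 4HC replicates 2 and 3 (11.9% and 11.8%) lay below every control. In bulk samples a larger share of cells in S phase and more RNA per cell cannot be told apart, and the part of the cell cycle in the result was not tested.

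The authors' annotation columns were also read, and the KEGG pathways in them follow from what these genes are. All 10 belong to the pathway DNA replication, beside 0.283% of the genes tested. The 6 of polymerases delta and epsilon belong to base excision repair (0.267% of the genes tested) and to nucleotide excision repair (0.372%). The 4 of polymerase delta belong to mismatch repair (0.178%) and to homologous recombination (0.315%). The hallmark set of E2F targets holds 6 of 10 (POLA2, PRIM2, POLD1, POLD2, POLD3 and POLE) and 1.62% of all genes tested. Of the 6 in the set 5 rose, all but POLD2, and of the 4 outside it 3 rose, all but POLD4. The hallmark set of DNA repair also holds 6 of 10, beside 1.18% of all genes tested. That of the G2M checkpoint holds 3 of 10 (1.58% of all genes tested). MYC targets V1 holds 1 of 10 (1.62%) and the p53 pathway 0 of 10 (1.32%). Over the 6 samples the 5 other genes closest to the mean profile of the members, among 10263 with at least 5 CPM, were SRD5A3, SYNM, AGAP1, VOPP1 and TUBA1B, with a root mean square difference of 0.0152 to 0.019 on the log2 scale. That profile was 0.31, 0.32 and 0.31 above the control mean in 4HC replicates 1 to 3, and none of the 5 genes is in any of the replication lists above.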

How the data were processed

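Total RNA of 3 control and 3 4HC-treated COV434 samples was sequenced. Read filtering was by SOAPnuke and later steps by the Dr. Tom system, per the labels, and the submitters' processing notes name HISAT2, Bowtie2, RSEM 1.3.1, DESeq2 1.4.5 and the build GRCh38.p13, without their roles. The authors deposited expected counts per gene and per transcript without normalization, of which 85.5% of the gene values were whole numbers. The deposited TPM and FPKM values were scaled by the authors to length and library size. Columns with the authors' own fold changes, p-values and q-values were not used, nor was a second gene table that repeats the first. Strandedness of the counting is not given in the sources used here.

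Rounded expected counts entered edgeR 4.0.16 (R 4.3.3; TMM normalization, filterByExpr, quasi-likelihood test, condition as the only term) over 12368 genes and, apart, over 42216 transcripts. CPM are TMM-normalized counts per 1000000. Adjusted p-values are Benjamini-Hochberg values over all features tested, and calls were made under 0.05. The study's fold change of 2 with an unadjusted p-value was read from the same fit, not from DESeq2. Intervals are 95% intervals of the fit and include the spread between these samples, which may be technical. Ratios of TPM were tested with an exact permutation test (scipy 1.17.1). No 2 replicates of a group held the same counts. Chi-square per gene between them ran from 1.7 to 2.47, and counting error alone would give about 1. These values alone cannot tell separate libraries from 1 library sequenced again, and the source of the excess was not tested. The test was tried first on simulated counts, with the spread of these data and fewer changed genes than were called here. No result above rests on that trial.

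The members and gene lists were chosen with earlier results of these data known. Named genes were all 10 members, up to 2 genes of each other list with the largest change among those called, the granulosa markers, and the 5 genes closest in profile. DCN, LUM, COL1A1, COL1A2, PDGFRA, POLE3, POLG, POLG2, CLCF1, PRIM2BP and POLD2P1 were named beside these. Alternatives were DESeq2 1.42.0, other scalings and filters, limma 3.58.1 on log2 TPM or FPKM with a pseudocount of 1 or 0.1, a replicate block, and leaving out each sample.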

Additional observations from a re-analysis of the deposited data

How the results depend on the processing

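The 8 members called higher in 4HC were also 8 under every alternative except DESeq2, which called 7 and left out POLE2 (log2 fold change 0.22, adjusted p = 0.0584). Members called lower and members at a fold change of 2 stayed at 0 throughout. POLD4 was not called in any fit, and its value of 0.02 ranged from -0.07 to 0.08 with each sample left out, POLD2 (0.07) ranging from 0.03 to 0.11 and POLD4 turning negative without control replicate 3 (-0.07) and without 4HC replicate 2 (-0.01). With the replicate number as a replicate block, POLA2 was at 0.62, POLE2 at 0.22 (adjusted p = 0.0109) and 2259 and 1954 of all genes were higher and lower, against 2379 and 2118 without it. Same-numbered samples of the groups correlated by 0.01 to 0.07 in their deviations, and samples of unlike number by -0.08 to 0.05. Whether the numbers pair the samples by design cannot be decided from these values. Among all genes, 1343 or 1345 were called lower with limma on FPKM (pseudocount 1 or 0.1). Genes at a fold change of 2 numbered 142, and 324 with no filter, 83 with a minimum of 10 counts, 37 with limma on TPM and 30 on FPKM (pseudocount 1). Why these counts moved was not tested. Member transcripts called higher numbered 3, and 6 with DESeq2, which also called 0 repair and translesion polymerase genes lower in place of 1. The 8 subunit ratios moved by less than their replicate spread with FPKM or with each sample left out. POLD4 had the fewest counts of the 10 members, 199 to 243 per sample, and the effect of depth was not tested.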

Other observations

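The strand column of the deposited gene table differed from RefSeq for POLE2 and POLD4, 2 of the 9 members with a single RefSeq strand, both of which RefSeq puts on the minus strand. Over 12697 genes with a strand in both, 3892 (30.7%) differed. Coordinates in the report are those of the deposited table for genes, and strands are those of RefSeq. The cause was not tested, and no value in the report uses the deposited strand.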
